A study of Arabidopsis thaliana with 69 samples.

Results

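The cleavage sites described here are the well-paired candidates in a survey of microRNA (miRNA) target cleavage in Arabidopsis embryos, roots and shoots. They are all distinct sites, that is combinations of a target transcript and a cut position, with an Allen score of 4 or less in any of 33 nanoPARE libraries. The Allen score adds a penalty of 1 for each mismatch or bulge and 0.5 for each G:U pair between miRNA and target, doubled at miRNA positions 2 to 13, so that a score of 0 is perfect pairing. Of 1735 distinct sites listed in the libraries, 243 met this limit, and the other 1492 had scores above 4, up to 6. The 243 sites lie in 225 genes and are assigned to 81 miRNAs with 72 different seeds, and 18 genes hold 2 sites. By score, 22 sites had 0 to 1, 39 had 1.5 to 2.5, and 182 had 3 to 4. The score comes from sequence alone, so the level of a site did not enter the choice, although each site had to be listed in at least 1 library.

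nanoPARE sequences the 5′ ends of RNA fragments from small amounts of RNA, and an end at the position opposite miRNA bases 10 and 11 marks the downstream product of cleavage. All plants were of the Col-0 accession. Globular embryos carrying the dcl1-5 allele of DICER-LIKE1 (3 libraries) were set against wild-type globular embryos (3 libraries), wild-type embryos were collected at 8 stages from preglobular to mature green (24 libraries in all), and roots of xrn4-5 seedlings (3 libraries) were set against shoots of xrn4-5 seedlings (3 libraries). The labels name the tissue as seedling but also give an age of 4 weeks for plants at harvest. The authors' methods describe week-old seedlings grown on plates, so labels and methods conflict on the age of these plants. Embryos of dcl1-5 were picked by their abnormal shape among the offspring of heterozygous plants, each embryonic library came from pooled embryos, and roots and shoots were examined only in the exoribonuclease mutant xrn4-5, in which cleavage products are stabilised. The replicates are separate pools collected on different days. The deposited tables list a level in RPM, that is reads scaled to a fixed library size, for each site that was listed in a library, and a site not listed was set to 0 RPM. They hold no counts, so the depth of each library is unknown, and 0 means not listed rather than not cleaved.

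In plants, DICER-LIKE1 releases mature miRNAs from hairpin precursors, and ARGONAUTE proteins loaded with a miRNA cut target RNA that pairs nearly perfectly with it. Many of the targets are transcription factors that pattern the embryo and the meristems. The TAS transcripts are noncoding targets whose cleavage products are turned into secondary small RNAs. XRN4 is the cytoplasmic 5′-to-3′ exoribonuclease that degrades the downstream products of cleavage.

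The sequences of the miRNAs with the highest sites are shown 5′ to 3′ from RefSeq, with the seed, bases 2 to 8, in capitals, because the level of a site is given below by its miRNA.
miR173-5p: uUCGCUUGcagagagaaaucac
miR171a-3p: uGAUUGAGccgcgccaauauc
miR171b-3p: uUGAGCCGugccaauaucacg
miR160a-5p: uGCCUGGCucccuguaugcca
miR403-3p: uUAGAUUCacgcacaaacucg
miR165a-3p: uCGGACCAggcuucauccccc
miR156j: uGACAGAAgagagagagcac
miR164a: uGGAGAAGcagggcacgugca
miR163: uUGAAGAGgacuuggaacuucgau
All 81 miRNA names and 223 of the 225 gene identifiers were matched in the RefSeq annotation of TAIR10.1.

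Target sites were placed on TAIR10.1 where an ungapped pairing in the gene gave the score in the table, which was the case for 98 of the 243 sites (21 of score 0 to 1, 26 of 1.5 to 2.5 and 51 of 3 to 4). Of these, 89 lie in a coding exon, 4 in a 3′ UTR, 3 in TAS genes without coding sequence, and 2 outside the exons of the gene model. The target strand is shown for sites that the results turn on, with bases that are unpaired or in a G:U pair in capitals.
TAS1C: gtgatttTtctctAcaagcgaa
TAS2: gtgatttTtctctCcaagcgaa
HAM1: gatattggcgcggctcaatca
ARF10: AggAatacagggagccaggca
ARF17: tggcatGcagggagccaggca
AGO2: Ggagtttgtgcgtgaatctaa
SPL2: gtgctctctctcttctgtca
NAC1: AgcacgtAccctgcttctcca
The TAS1C site (chr2:16537890-16537911, minus strand) has the same letters as that of TAS1A (chr2:11722081-11722102, minus strand), and the TAS2 site is at chr2:16539991-16540012 on the minus strand. The HAM1 site (chr2:18619128-18619148, minus strand) has the same letters as that of HAM2 (chr3:22411544-22411564, minus strand), and both are in coding exons and pair with miR171a-3p without a mismatch. The sites of ARF10 (chr2:12115741-12115761, plus strand), ARF17 (chr1:29274189-29274209, plus strand), SPL2 (chr5:17360758-17360777, minus strand) and NAC1 (chr1:20947142-20947162, minus strand) are in coding exons, and that of AGO2 (chr1:11185223-11185243, plus strand) is in the 3′ UTR.

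Sites with closer pairing were listed in more libraries. A site of score 0 to 1 was listed in a median of 17.5 of the 33 libraries, a site of 1.5 to 2.5 in 6, and a site of 3 to 4 in 2, which is also the median of the sites above 4. Only 2 of the 22 sites of score 0 to 1 were listed in a single library (9.09%), against 10 of 39 (25.6%) at 1.5 to 2.5, 74 of 182 (40.7%) at 3 to 4, and 40.3% of the sites above 4. In 10 or more libraries were listed 15 of 22 sites (68.2%), 15 of 39 (38.5%) and 27 of 182 (14.8%) by score, and 8.58% of the sites above 4. The sites share libraries and miRNAs, so these shares are a description and no test was made of them.

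The limit of 4 separates sites of like occurrence. The 114 sites at a score of 4, just inside it, were listed in a median of 2 libraries, and the highest by mean level over all 33 libraries were GRF3 (0.945 RPM), ARF8 (0.916 RPM) and GRF1 (0.596 RPM). The 167 sites at 4.5, just outside it, were also listed in a median of 2, and they include 3 sites of small RNA precursor transcripts, TAS1B (mean 5.70 RPM), the TASIR-ARF transcript AT5G57735 (2.96 RPM) and TAS3 (2.53 RPM).

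The 22 sites of score 0 to 1 fall mainly into known target families. They comprise 8 sites of miR156j in SPL genes, which promote the change from juvenile to adult growth, 3 of miR171a-3p in the GRAS transcription factors HAM1, HAM2 and HAM3, which maintain meristems, and 2 of miR161.2 in genes of pentatricopeptide repeat (PPR) proteins, which bind organelle RNA. ARF17, AGO2, AGL16, LCR, PXMT1, AT1G61230 and AT5G43740 have 1 each. The 2 sites at score 0 in AT2G47020 were listed in 4 and 5 libraries at up to 0.424 and 0.596 RPM, and they lie opposite the miR408 gene, so that the target letters are the complement of the miRNA gene itself. The SPL9 site is likewise opposite the annotated miR156j gene. Levels of 12 sites were identical in every library to those of a site in another gene (SPL13A and SPL13B among them), so for these the gene of origin is uncertain.

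A small number of sites carried most of the signal. In the 24 wild-type embryonic libraries, the highest site, TAS1C, held 23.1% of the summed RPM of all 243, the 3 highest held 52.3%, the 10 highest 81.8% and the 20 highest 87.6%. By target group, the 3 TAS sites of miR173-5p held 47.4%, the 6 HAM sites 20.6% and the 3 sites of miR160a-5p in ARF10, ARF16 and ARF17, which encode repressing auxin response factors, 8.73%. The 163 sites outside the groups of known families held 5.69%.

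In globular embryos, well-paired sites were fewer and much lower in dcl1-5 than in wild type. The dcl1-5 libraries listed 22, 16 and 12 of the sites, against 39, 57 and 46 in wild type, and the mean was 16.7 ± 5.0 in dcl1-5 and 47.3 ± 9.1 in wild type (SD, n = 3 each). Their summed level was 4.89, 3.49 and 1.53 RPM in dcl1-5, against 105.5, 83.9 and 60.2 RPM in wild type. No site reached 1 RPM in any dcl1-5 library, whereas 13, 11 and 10 sites did in the wild-type libraries. Neither the numbers nor the sums overlapped between the groups, and the two-sided exact permutation p was 0.1 for each, which is the smallest that 3 libraries against 3 allow (adjusted p = 0.15 over the 36 tests of this kind).

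Summed levels were lower in dcl1-5 at every score step, and the steps were not tested against each other. At score 0 to 1 the summed level averaged 0.066 ± 0.058 RPM in dcl1-5 and 26.0 ± 7.9 RPM in wild type. At 1.5 to 2.5 it was 0.486 ± 0.262 RPM in dcl1-5 and 47.2 ± 11.4 RPM in wild type, and at 3 to 4 it was 2.75 ± 1.43 RPM in dcl1-5 and 10.04 ± 4.15 RPM in wild type (SD, n = 3 each, exact permutation p = 0.1 at every step). Within the step of 3 to 4, the libraries overlapped at a score of 4, which holds 114 of its 182 sites. There the sum was up to 2.88 RPM in dcl1-5 and down to 1.70 RPM in wild type. The sites above 4 summed to 62.7 ± 32.4 RPM in dcl1-5 and 112.3 ± 7.3 RPM in wild type. They too were lower in dcl1-5 without overlap, with at most 85.9 RPM against at least 108.0 RPM. Of the summed level of all listed sites, well-paired sites held 5.12 ± 0.67% in dcl1-5 and 42.0 ± 5.6% in wild type. As a share of the number of listed sites they made up 12.7 ± 4.8% in dcl1-5 and 19.0 ± 1.9% in wild type, and these libraries overlapped (exact permutation p = 0.2, adjusted 0.267). The third dcl1-5 library listed 66 sites of any score, against 201 and 177 in the other dcl1-5 libraries and 185, 330 and 247 in wild type, and the part of this in the lower number of well-paired sites was not tested.

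**Figure D1:**
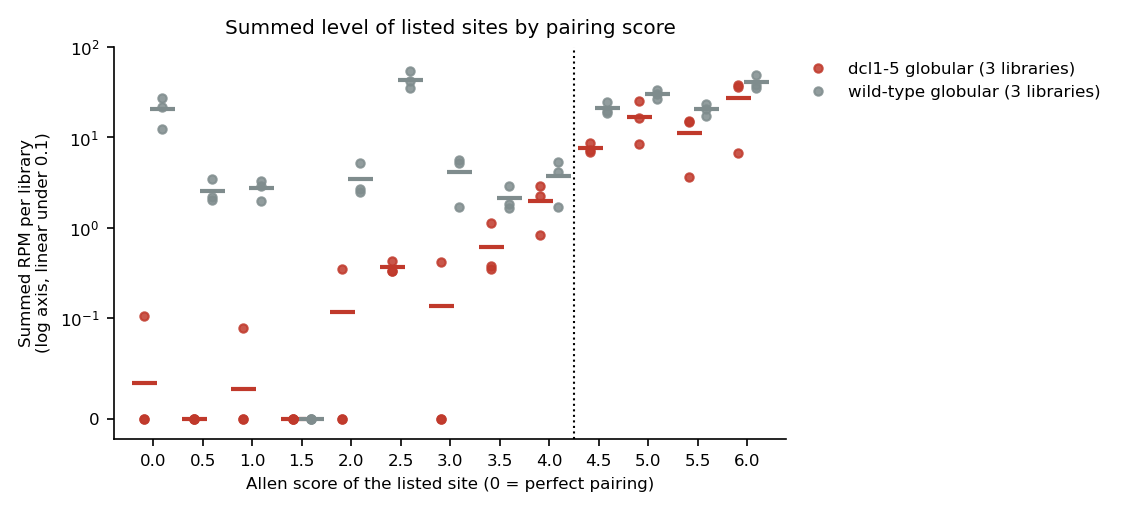
Summed level of listed sites in RPM (log axis, linear below 0.1) by Allen score in the 3 dcl1-5 globular and 3 wild-type globular libraries. Points are libraries, bars are means, and the dotted line marks the limit between scores 4 and 4.5. At 0 the dcl1-5 libraries lie at 0.107 RPM or below. At 4, just inside the limit, the 2 groups overlap, with up to 2.88 RPM in dcl1-5 and down to 1.70 RPM in wild type. At 4.5, just outside it, they do not, with at most 8.63 RPM in dcl1-5 and at least 18.8 RPM in wild type.

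Site by site, the sites that fell in dcl1-5 were those of TAS transcripts, meristem and auxin regulators, AGO2 and PHB. The TAS1C site had 0.214, 0.124 and 0 RPM in dcl1-5, against 33.0, 22.5 and 15.5 RPM in wild type, a log2 change of −4.41 ± 0.54 (SE) on the log2(RPM + 1) scale. TAS1A had 0.0983, 0 and 0.203 RPM in dcl1-5, against 13.1, 10.1 and 9.05 RPM in wild type. TAS2 was listed in none of the dcl1-5 libraries, and had 6.67, 7.28 and 8.75 RPM in wild type. All 3 transcripts start the production of secondary small RNAs, and none of their dcl1-5 values came near the lowest wild-type value. The limma adjusted p was 1.89e-05 for TAS1C and 1.80e-05 for TAS1A.

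HAM1 was not listed in dcl1-5 and had 21.4, 14.7 and 8.87 RPM in wild type (log2 change −3.92). HAM2 had 0, 0.107 and 0 RPM in dcl1-5, against 2.84, 5.57 and 2.46 RPM in wild type (−2.10 ± 0.34, adjusted p = 0.000358). ARF10 had 0.356, 0 and 0 RPM in dcl1-5, against 4.85, 2.27 and 2.38 RPM in wild type (−1.86 ± 0.34). The libraries of the 2 genotypes did not overlap for any of these 3 sites.
ARF17 was not listed in dcl1-5 and had 3.51, 1.95 and 2.18 RPM in wild type (−1.80). AGO2, which encodes an ARGONAUTE protein, had 0.0904, 0 and 0 RPM in dcl1-5, against 2.00, 3.12 and 1.59 RPM in wild type (−1.63 ± 0.31). PHB, an HD-ZIP III transcription factor of embryo and leaf polarity, had 0, 0.0579 and 0 RPM in dcl1-5, against 1.87, 1.92 and 0.482 RPM in wild type (−1.18 ± 0.33, limma adjusted p = 0.0262). TAS2, HAM1 and ARF17 entered the fit only through the wild-type libraries. Their p-values are given from a fit of all 719 sites listed in at least 1 library (limma adjusted p = 1.39e-05, 1.36e-09 and 0.00826). These sites entered that fit too through wild type alone, so the p-values are not independent of how they were listed. Their fitted change depends on the pseudocount of 1 RPM and is not a bound.

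In this fit, limma on log2(RPM + 1) over every site of any score that was listed in at least 3 of the 6 libraries, 13.7% of 124 sites passed the adjusted threshold of 0.05 (12.9% lower, 0.806% higher). Of the 243 well-paired sites, 28 entered the fit, and the 9 described above passed, all lower in dcl1-5. By score these were 4 of 4 sites at 0 to 1, 4 of 5 at 1.5 to 2.5 and 1 of 19 at 3 to 4, and 8 of 96 sites above 4 passed (8.33%). The 6 libraries did not overlap for 15 of the 28, all lower in dcl1-5, against a background of 32.3% lower among all sites tested. A site could enter through the wild-type libraries alone, so the counts among tested sites describe the fit only. The PHB call was lost in 7 of 14 alternative settings, and without wild-type library 1 or 2 it was lost and 5 sites passed, since TAS2, HAM1 and ARF17 were then listed in too few libraries to be tested.

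By target group, 3 of 3 TAS sites, 2 of 2 tested HAM sites, 2 of 2 tested miR160 sites and AGO2 passed, and 1 of 3 tested HD-ZIP III sites did. PHV and REV, the other HD-ZIP III sites tested, had log2 changes of −0.61 and −0.91 with limma adjusted p of 0.14 and 0.12. The 4 PPR sites tested did not pass. GRF1 and GRF2, growth-regulating transcription factors paired with miR396a-5p at a score of 4, did not pass either. GRF1 had 0, 0.145 and 0.410 RPM in dcl1-5, against 0, 0.184 and 0 RPM in wild type, so that its libraries overlapped.

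Some well-paired sites were listed in dcl1-5. A total of 39 well-paired sites were listed in any dcl1-5 library, against 89 in any wild-type globular library, and 16 of the 39 were in none of the wild-type globular libraries. By score, 31 of the 39 well-paired sites had 3 to 4, as did 182 of all 243. Only 11 well-paired sites were listed in 2 or more dcl1-5 libraries. They were TAS1A and TAS1C with the values above, GRF1, GRF2, AT1G74790, MYB11, and 5 sites of miR859 in annotated genes, of which 4 had identical levels in every library. GRF2 had 0.133, 0.164 and 0 RPM in dcl1-5, against 0.742, 0.315 and 0.0943 RPM in wild type. AT1G74790, paired with miR165a-5p, had 0, 0.440 and 0.164 RPM in dcl1-5, against 0, 0.0826 and 0 RPM in wild type. MYB11, which activates flavonol synthesis, had 0, 0.381 and 0.146 RPM in dcl1-5 and was listed in no wild-type library of any stage. None of these sites had 0.5 RPM in any dcl1-5 library.

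The small RNA libraries of the same stage were used to check the genotype. Of the 81 miRNAs, 42 averaged at least 1 RPM in wild-type globular embryos, and 28 of these were lower in every dcl1-5 library than in any wild-type library and 0 were higher, against 69.6% lower and 0% higher among all 92 miRNAs of that level in the tables, and the median level in dcl1-5 was 1.78% of wild type. miR403-3p, which pairs with AGO2, had 1.13, 1.04 and 2.23 RPM in dcl1-5, against 148.5, 177.7 and 261.1 RPM in wild type, without overlap. miR173-5p, which pairs with the TAS1C site, the highest in embryos, had 0 RPM in each dcl1-5 library and 0, 0 and 2.06 RPM in wild type. The target transcripts were present in dcl1-5 mRNA libraries. All 9 genes with a lower site had at least 1 TPM, a length-scaled share of transcripts, in all 3, from 12.96 ± 2.90 TPM for TAS1A to 213.0 ± 31.6 TPM for PHB (SD, n = 3). Of 223 genes with a well-paired site, 181 had at least 1 TPM, of which 144 had no listed well-paired site in dcl1-5. Over all 243 sites, 39 were listed in any dcl1-5 library and 89 in any wild-type globular library, so most sites were unlisted in either genotype. Wild-type mRNA was not analysed here, so transcript levels were not compared. In those dcl1-5 mRNA libraries, all 9 embryo markers averaged at least 1 TPM (summed level 1818 to 2536 TPM). So did 2 of 6 endosperm markers (4.09 to 9.63 TPM) and 2 of 6 seed coat markers (14.3 to 18.0 TPM). MEA and TT16 were at 0 in some of the libraries. Most of the embryo sum came from PDF1 (mean 1677 TPM), and most of the seed coat sum from BAN (mean 13.5 TPM). BAN averaged more than the embryo markers WOX8 (9.85 TPM), LEC2 (11.7 TPM) and DRN, and less than the other embryo markers.

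Across the 8 wild-type stages, which include the globular libraries used above, well-paired sites were most numerous and highest from the early heart to the early torpedo stage. On average 33.0 sites were listed at preglobular and 47.3 at globular, then 65.0 at early and 69.7 at late heart, 69.7 at early and 57.0 at late torpedo, 41.3 at bent cotyledon and 31.0 at mature green (n = 3 each). The number differed between stages (permutation test of F over 24 libraries, p = 0.00148, adjusted p = 0.00761 over the 36 tests), although the late heart libraries ranged from 54 to 89. The number of all listed sites, of any score, took a like course. It averaged 191.0 at preglobular, 297.0 at early torpedo and 132.7 at mature green. The summed level of well-paired sites over the 8 stages in order was 48.3, 83.2, 138.6, 169.2, 134.1, 102.3, 38.4 and 50.3 RPM, with SDs between 8.8 and 43.6 RPM. It also differed between stages (permutation test, p = 6e-05, adjusted p = 0.00072), and the lowest late heart library (135.7 RPM) was above the highest bent cotyledon library (46.6 RPM). Without the libraries of replicate 1 the number of well-paired sites had a permutation p of 0.0596.

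The summed levels of the score steps did not have the same course, and the steps were not tested against each other. Much of the sums at 0 to 1 and 1.5 to 2.5 came from few sites. The 3 TAS sites summed to 33.2 RPM at preglobular and 78.0 RPM at late heart, within 1.5 to 2.5. The HAM sites of miR171a-3p summed to 3.95 and 38.0 RPM at these stages, within 0 to 1. A difference by score thus cannot be told apart from a difference between these targets. Sites of score 0 to 1 summed to 7.03 ± 3.17 RPM at the preglobular stage, 54.7 ± 11.6 RPM at late heart and 20.8 ± 5.9 RPM at mature green. Sites of 1.5 to 2.5, in which the TAS sites lie, summed to 34.9 ± 10.4 RPM at the preglobular stage, 94.4 ± 14.9 RPM at late heart and 9.77 ± 3.49 RPM at bent cotyledon (SD, n = 3 each). Sites of 3 to 4 summed to 6.38 ± 1.17 RPM, 20.1 ± 8.4 RPM and 4.51 ± 2.24 RPM at preglobular, late heart and mature green. The sites above 4 rose from a stage mean of 100.1 RPM at preglobular to 144.0 RPM at early torpedo and fell to 69.9 RPM at mature green. Among the listed sites, the share that were well paired ranged from 17.1% to 24.1% between stage means (permutation p = 0.0883, adjusted p = 0.15).

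**Figure D2:**
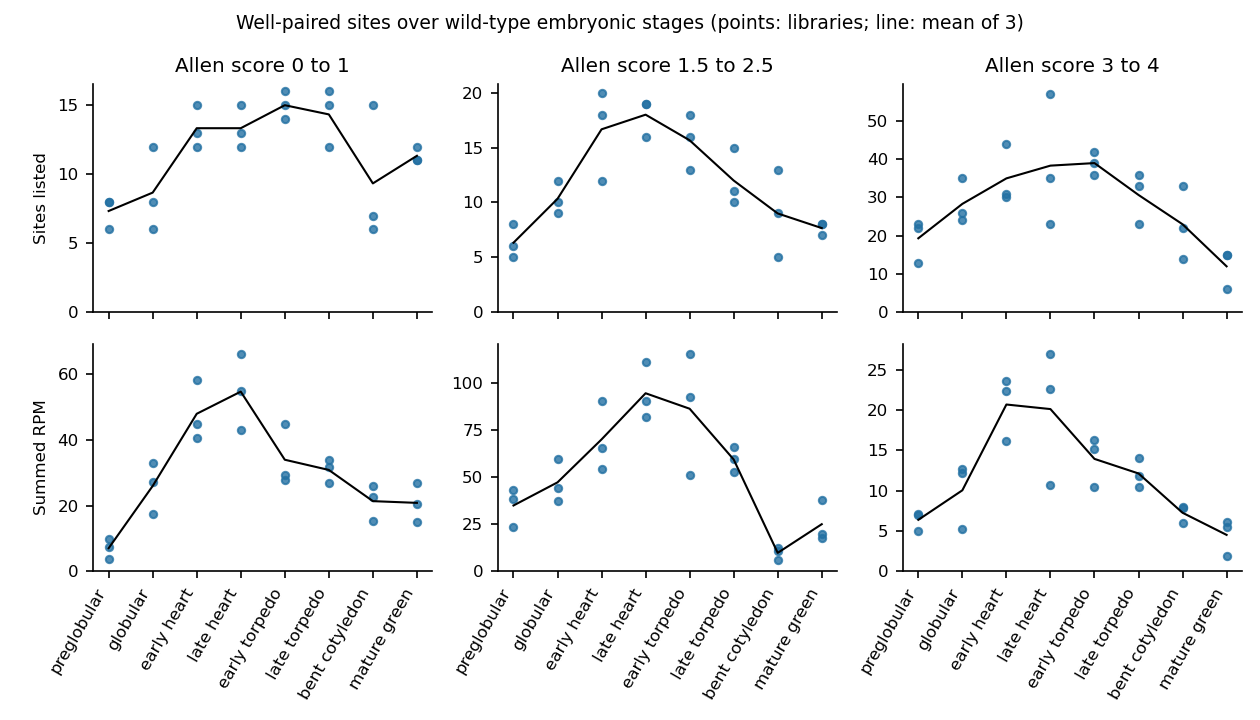
Number of listed well-paired sites (top) and their summed level in RPM (bottom) at the 8 wild-type stages, by Allen score. Points are libraries and lines join stage means of 3 libraries. The sum at score 0 to 1 is lowest at preglobular (7.03 RPM), while that at 1.5 to 2.5, most of which comes from the 3 TAS sites, is lowest at bent cotyledon (9.77 RPM).

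In the fit over stages, 6.98% of 616 sites of any score passed (limma moderated F, adjusted threshold 0.05). Of the 112 well-paired sites tested, 18 passed, that is 5 of 19 at score 0 to 1, 9 of 22 at 1.5 to 2.5 and 4 of 71 at 3 to 4, and 4.96% of the 504 sites above 4 did. By group, 3 of 3 TAS sites, 3 of 3 miR160 sites, 3 of 3 tested HAM sites, 2 of 5 HD-ZIP III sites, 2 of 3 tested NAC sites, 2 of 15 tested PPR sites, TCP2, AGO2 and AT1G25682, the last a gene outside the groups, passed. None of the 8 tested SPL sites or 5 GRF sites passed. With RPM scaled to the same sum 12 passed, and 9 and 10 passed without the libraries of replicate 1 and 2. Only 7 of the 18 passed under every alternative setting in which they were tested, namely TAS1A, TAS1C, TAS2, HAM1, CUC1, TCP2 and ARF16.

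The TAS sites stayed high up to the late torpedo stage and were lowest at bent cotyledon. TAS1C averaged 19.3 ± 7.2 RPM at preglobular, 35.2 ± 7.6 RPM at late heart, 22.4 ± 2.7 RPM at late torpedo, 2.93 ± 0.95 RPM at bent cotyledon and 8.32 ± 3.98 RPM at mature green (limma adjusted p = 1.001e-09). TAS1A had 31.2, 13.4 and 33.3 RPM at early torpedo, its highest stage, and 0, 1.34 and 2.91 RPM at bent cotyledon (adjusted p = 6.99e-08). TAS2 had 20.2, 15.3 and 19.8 RPM at late heart and 0.913, 2.98 and 2.15 RPM at bent cotyledon (adjusted p = 5.25e-05). In each case the lowest library of the highest stage was above every library at bent cotyledon. Bent cotyledon was also the only embryonic stage whose libraries did not start from cDNA made for an earlier mRNA study, and the part of this in the low values was not tested. The level of miR173-5p itself averaged 0.2 RPM at early heart, 13.1 RPM at bent cotyledon and 8.9 RPM at mature green.

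HAM1 and HAM2 followed another course, with the preglobular stage lowest. HAM1 had 4.45, 2.01 and 1.27 RPM at preglobular, 22.9, 30.3 and 27.0 RPM at early heart, and 10.2, 17.7 and 9.46 RPM at mature green (limma adjusted p = 1.53e-06). HAM2 averaged 1.38 ± 1.11 RPM at preglobular, 9.40 ± 3.83 RPM at late heart and 2.64 ± 0.59 RPM at mature green (adjusted p = 0.0120). The HAM3 site, which has the same 21 letters, was not listed at the preglobular and globular stages and was highest at bent cotyledon, with 0.779, 0.620 and 0.462 RPM (adjusted p = 0.0287). Its highest embryonic level was thus below the mean of HAM1 at every stage.

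Among the auxin response factors of miR160a-5p, ARF10 averaged 1.16 ± 0.82 RPM at preglobular and 7.52 ± 2.77 RPM at late heart, and ARF17 1.28 ± 0.41 RPM at preglobular and 5.95 ± 1.85 RPM at early heart (limma adjusted p = 0.0287 and 0.0429). ARF16 was not listed in the first 2 stages and had 1.04, 2.21 and 1.31 RPM at early torpedo (adjusted p = 9.94e-05). AGO2 averaged 0.752 ± 0.467 RPM at preglobular, 7.21 ± 1.46 RPM at early torpedo and 0.645 ± 0.147 RPM at bent cotyledon (adjusted p = 0.000514).
PHB had 7.95, 7.53 and 2.96 RPM at early heart and 0.281, 0 and 0.287 RPM at bent cotyledon (adjusted p = 0.000780). PHV, its close relative, averaged 1.89 ± 1.05 RPM at early heart and was not listed at mature green (adjusted p = 0.00158). Both were thus highest at early heart, and in the third late heart library PHB had 0.368 RPM and PHV was not listed.

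The boundary genes CUC1 and CUC2, NAC transcription factors that separate the cotyledons, had their sites of miR164a at the heart stages. CUC1 was not listed at preglobular, had 2.13, 0.988 and 1.47 RPM at early heart and averaged 0.118 RPM at late torpedo (limma adjusted p = 0.000127). CUC2 averaged 1.67 ± 0.64 RPM at early heart and 1.74 ± 1.27 RPM at late heart, and was not listed at preglobular and bent cotyledon (adjusted p = 0.000154). TCP2, a growth regulator paired with miR319a, was not listed at preglobular, globular and mature green and had 0.880, 3.98 and 0.589 RPM at late torpedo (adjusted p = 0.00103). SPL2, the tenth highest site in embryos, averaged 1.69 ± 0.86 RPM at late torpedo and 0.0968 ± 0.0843 RPM at bent cotyledon and did not pass.

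**Figure D3:**
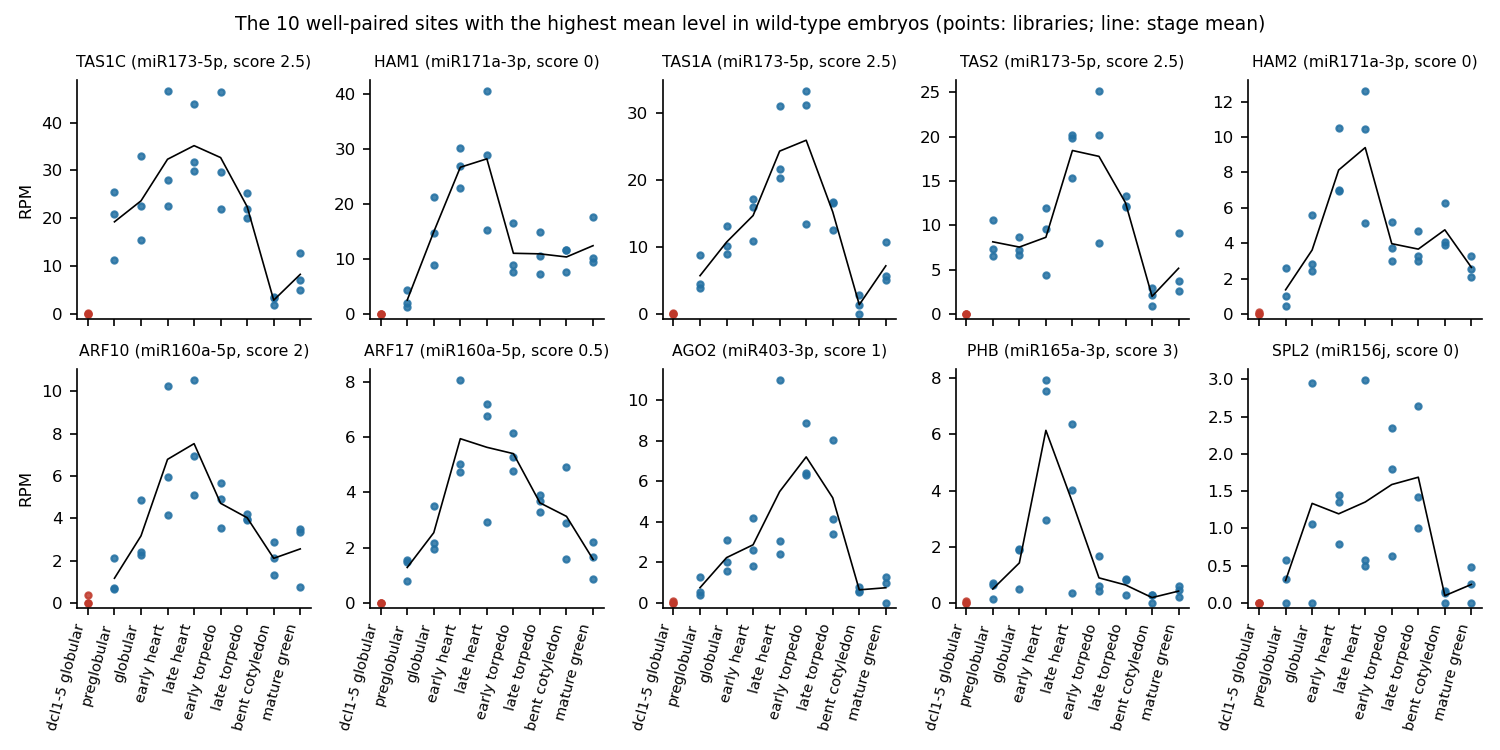
Level in RPM of the 10 well-paired sites with the highest mean in wild-type embryos, in dcl1-5 globular embryos (red) and at 8 wild-type stages (blue), with a scale of its own for each site. Points are libraries and lines join stage means. The 3 TAS sites are lowest at bent cotyledon among wild-type stages and HAM1, HAM2, ARF10 and ARF17 at preglobular, and no dcl1-5 library has more than 0.356 RPM.

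Over all well-paired sites, the stage of highest mean level was late heart for 50 of the 212 sites listed in any wild-type embryonic library, early heart for 38, early torpedo for 29, late torpedo for 27, preglobular for 23, globular for 17, bent cotyledon for 15 and mature green for 13. Many of these sites were listed in 1 library only, so that their order was not tested. The stages also differed in the number of all listed sites, with means of 288.7 at late heart and 132.7 at mature green. The same counts were not made for the sites above 4, so no preference of well-paired sites can be read from them.

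In xrn4-5 seedlings, roots listed more sites than shoots, well paired or not, while the summed levels of well-paired sites overlapped. Sites of any score numbered 254, 219 and 169 in roots, against 145, 100 and 144 in shoots. Well-paired sites numbered 53, 49 and 45 in roots, against 38, 36 and 38 in shoots (mean 49.0 ± 4.0 in roots and 37.3 ± 1.2 in shoots, SD, n = 3 each, exact permutation p = 0.1, the smallest possible, adjusted 0.15). The part of the difference over all sites in that of well-paired sites was not tested. The summed level of well-paired sites was 97.7, 112.9 and 166.8 RPM in roots, against 83.1, 116.3 and 97.1 RPM in shoots (exact permutation p = 0.4). With sites of at least 1 RPM only, the number was lower by 0.333 in roots. Sites of score 1.5 to 2.5 summed to 70.8 ± 20.4 RPM in roots and 33.5 ± 7.9 RPM in shoots without overlap (exact permutation p = 0.1). Sites of 0 to 1 summed to 32.7 ± 9.4 RPM in roots and 43.1 ± 4.1 RPM in shoots (p = 0.3, exact), and sites of 3 to 4 to 22.3 ± 6.7 RPM in roots and 22.2 ± 6.4 RPM in shoots (p = 1, exact). Well-paired sites were 23.3 ± 3.0% of the listed sites in roots and 29.5 ± 5.6% in shoots (p = 0.3, exact).

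Site by site, 19.4% of 103 sites of any score passed between the tissues (10.7% higher in roots, 8.74% lower, limma adjusted threshold 0.05). Of 44 well-paired sites tested, 15 passed, 8 higher in roots and 7 lower, and with RPM scaled to the same sum over listed sites 5 were higher and 8 lower. Of the 15, 9 were listed in 1 tissue only and entered the fit through it, so no p-value of this fit is given for them. In a fit of every site listed in at least 1 library, their limma adjusted p ran from 2.43e-11 for HAM1 in shoots to 0.0271 for HAM2 at its root position. They entered that fit too through the same tissue alone, so these p-values are not independent of how they were listed. A filter of at least 4 libraries, which removes such sites, left 2 calls. Fewer passed without root library 2 (8) or 3 (7) and without shoot library 1 (5), 2 (6) or 3 (5). Beside an overall background of 12.6% lower and 25.2% higher without overlap, 9 well-paired sites were lower in every root library than in any shoot library and 13 were higher.

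The 8 sites higher in roots were in ARF10 and ARF16, 3 NAC genes, PXMT1, and HAM1 and HAM2 at a second position described further on. ARF10, the highest well-paired site in xrn4-5, had 26.6, 31.6 and 45.8 RPM in roots, against 7.39, 20.7 and 8.65 RPM in shoots (log2 change 1.53 ± 0.49, limma adjusted p = 0.0272). ARF16 had 4.30, 6.11 and 6.98 RPM in roots, against 3.70, 1.58 and 0.433 RPM in shoots (1.37 ± 0.41, adjusted p = 0.0195). ARF17 had 13.8, 19.2 and 30.2 RPM in roots, against 9.71, 11.5 and 5.53 RPM in shoots, without overlap, but did not pass (1.14, adjusted p = 0.0707). All 3 are paired with miR160a-5p, and for the first 2 the call was lost when some libraries were left out, with adjusted p up to 0.167 for ARF10 and 0.215 for ARF16.

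NAC1, a factor of lateral root formation, had 11.8, 9.41 and 17.7 RPM in roots, against 2.85, 4.90 and 2.99 RPM in shoots (1.59 ± 0.40, limma adjusted p = 0.00531). NAC080 had 2.86, 0.924 and 3.01 RPM in roots and was not listed in shoots (1.63). NAC100 had 0.785, 0.842 and 3.10 RPM in roots, against 0, 0 and 0.311 RPM in shoots (1.12 ± 0.36, adjusted p = 0.0291). The fourth NAC site tested, NAC6, did not pass (−0.54, adjusted p = 0.441). NAC1, NAC080 and NAC100 carry a miR164a site, and in wild-type embryos NAC1 was listed in 4 of 24 libraries at 0.385 RPM or less and NAC080 in none. The NAC1 and NAC100 calls were lost when some libraries were left out (adjusted p up to 0.137 and 0.158).
PXMT1, an annotated methyltransferase paired with miR163 at a score of 1, had 10.03, 3.21 and 4.53 RPM in roots and was not listed in any shoot or embryonic library (2.67). The miRNAs tested by the authors were those detected in embryos, so that miRNAs found in roots or shoots alone were not covered.

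The 7 sites lower in roots were 2 of 7 tested SPL sites, 1 of 5 tested GRF sites, the miR171a-3p sites of HAM1, HAM2 and HAM3, and ARF8. Among the SPL sites that did not pass, log2 changes ran from −0.91 for SPL13A and SPL13B to 0.49 for AT1G69170, and among the GRF sites from −0.45 for GRF3 to 0.25 for GRF9. SPL2 was not listed in roots and had 0.899, 1.78 and 2.32 RPM in shoots (log2 change −1.38). SPL3 was not listed in roots and had 0.589, 1.83 and 2.07 RPM in shoots (−1.26). GRF4 had 0.334, 0.280 and 0 RPM in roots, against 2.00, 2.41 and 0.446 RPM in shoots (−1.04 ± 0.36, adjusted p = 0.0450). GRF3 had 2.58, 4.56 and 3.69 RPM in roots, against 3.75, 5.33 and 6.86 RPM in shoots, which overlapped. With some libraries left out, SPL3 and GRF4 no longer passed (limma adjusted p up to 0.0559 and 0.171). The TAS sites did not pass between the tissues, and TAS1C had 4.15, 8.00 and 9.01 RPM in roots, against 6.48, 7.40 and 14.4 RPM in shoots.

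The HAM sites of miR171a-3p were high in shoots and nearly unlisted in roots. HAM1 was not listed at this position in roots and had 11.6, 13.9 and 14.8 RPM in shoots (log2 change −3.85). HAM2 was not listed there in roots and had 7.85, 10.3 and 10.15 RPM in shoots (−3.37). HAM3 had 0, 0.431 and 0 RPM in roots, against 3.53, 4.71 and 4.46 RPM in shoots (−2.21 ± 0.34, limma adjusted p = 1.71e-05). In roots the same genes were listed at a position 3 bases upstream, which is assigned to miR171b-3p with a score of 4. HAM1 had 2.37, 0.921 and 2.98 RPM there in roots and was not listed there in shoots or embryos (1.56). HAM2 had 0.644, 1.06 and 1.501 RPM there in roots (1.03), and HAM3 had 1.31, 0 and 1.57 RPM. The HAM2 call at this position was lost with each shoot library left out (limma adjusted p up to 0.143) and was not tested without a root library.

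The overlapping target windows of the HAM genes are shown with the bases opposite base 10 of miR171b-3p (left) and of miR171a-3p (right) in capitals, since the tissues differ in which of the positions is listed.
HAM1: agggatattggCgcGgctcaatca
HAM2: agggatattggCgcGgctcaatca
HAM3: ggggatattggCgcGgctcaatca
They lie at chr2:18619128-18619151 (HAM1), chr3:22411544-22411567 (HAM2) and chr4:58411-58434 (HAM3), all on the minus strand. The 2 miRNAs are offset by 3 bases and share 17 of 18 aligned bases. Across the tables, none of the 14 pairs of positions at most 3 bases apart was ever listed together in a library, whereas 7 of 8 pairs that were 9 bases apart were. The tables thus hold at most 1 of such neighbouring positions per library, and signal at the other was not available for comparison. With positions at most 3 bases apart merged, an alternative chosen after the data were seen, HAM1, HAM2 and HAM3 remained lower in roots by log2 changes of −2.28, −2.34 and −1.35 (limma adjusted p = 4.00e-05, 1.86e-05 and 0.0190).

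ARF8, an auxin response factor paired with miR167, also had neighbouring positions 1 base apart. ARF8 at the position assigned to miR167a-5p, with a score of 4, was not listed in roots and had 3.29, 6.85 and 1.76 RPM in shoots (log2 change −2.18). At the position of miR167c-5p, with a score of 3.5, it had 0.276, 0.691 and 2.02 RPM in roots and was not listed in shoots (log2 change 0.90), and did not pass. After merging, the log2 change of ARF8 was −1.28 (limma adjusted p = 0.0202).

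**Figure D4:**
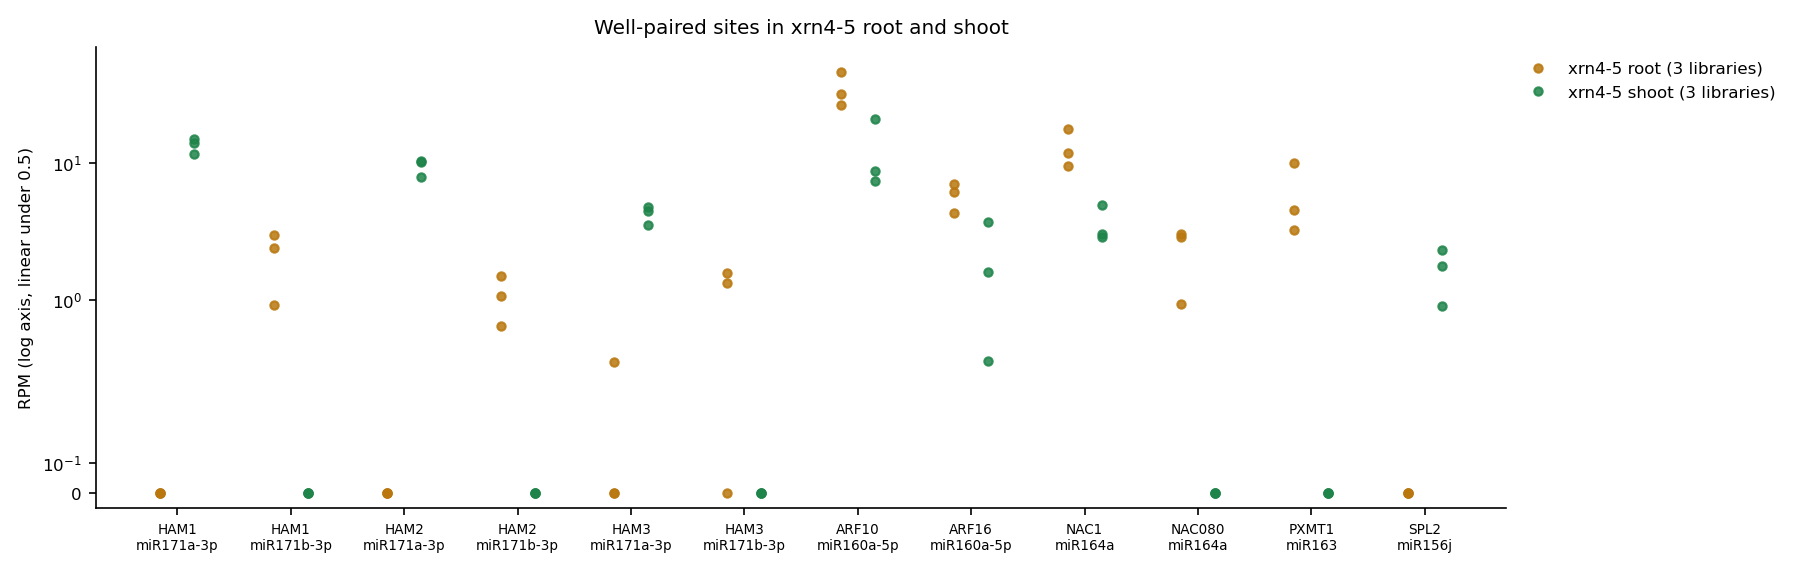
Level in RPM (log axis, linear below 0.5) of 12 well-paired sites in the 3 xrn4-5 root and 3 xrn4-5 shoot libraries. Points are libraries. For HAM1, HAM2 and HAM3 the miR171a-3p position is high in shoots (3.53 to 14.8 RPM), and the miR171b-3p position is listed in roots only (up to 2.98 RPM).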

How the data were processed

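Small RNA, nanoPARE and mRNA libraries of Arabidopsis were analysed from the deposited tables. For nanoPARE, the authors masked capped ends, ran EndCut on target predictions for miRNAs of at least 1 RPM in embryos, and deposited the RPM and the Allen score of each listed site. The fold change and p-value columns of these tables hold the authors' own comparisons and were not used. For small RNAs, the authors deposited an expected count and an RPM for each mature miRNA. For mRNA, the authors deposited kallisto estimates, and of these only the TPM of a transcript was used here, not its estimated count. Per the submitters' processing notes, cutadapt, STAR, bedtools, kallisto and the TAIR10 genome were used, with versions not given in the sources used here. RPM alone was tested because the site tables hold no counts, and the depth of the nanoPARE libraries is unknown.

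The 33 tables held 7148 entries. Sites not listed were set to 0. Single values per library (numbers, summed RPM tested on log2 of the sum plus 1, and shares) were tested by exact permutation between 2 groups, two-sided, or by 100000 permutations of F over stages, with Benjamini-Hochberg adjustment over the 36 tests. Sites were fitted by limma (version 3.58.1, R 4.3.3) after adding 1 RPM and taking log2, allowing a trend of the variance with the mean, and p-values were adjusted over every site listed in at least 3 libraries of a fit, whatever its score. p-values measure the spread between the replicate pools. The fits were tested on simulated data in which low site levels were raised and no site was unlisted. Their error rate with many unlisted values was thus not tested. Everything else was computed in pandas 2.3.3 and numpy 2.4.6 under Python 3.11.15 and drawn with matplotlib 3.10.9.

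The sites named are the 10 highest in embryos, the 5 highest in xrn4-5, the 3 highest in each score step, the 5 largest changes among passing sites of each fit whose libraries did not overlap, the 3 highest at a score of 4 and at the next score, and up to 10 sites listed in 2 or more dcl1-5 libraries. Other passing sites and a few of their relatives were named after their values were seen. The sites, target groups and lists were chosen with earlier results of these data known. Alternatives were pseudocounts of 0.1 and 10 RPM, score limits of 3 and 4.5, sites of at least 1 RPM only, other filters, no intensity trend, scaling to the same sum, all 33 libraries in 1 fit, 1 site per gene and position, leaving out the highest site, the replicate block, and leaving out replicates. Merging positions at most 3 bases apart was added after the data were seen. Floral and leaf libraries, dilutions and wild-type mRNA are not analysed here.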

Additional observations from a re-analysis of the deposited data

How the results depend on the processing

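Of the 12 main results, the 3 of dcl1-5 against wild type for single values kept their direction under every alternative run. Exact permutation p stayed at the smallest possible for the number and the sum, 0.1, or 0.25 with the replicate block. For the share it ran from 0.1 to 0.4. Over stages, the number of sites had a permutation p of 0.0596 (range of stage means 42.5, and 39.5 to 46.0 over the left-out replicates) without the libraries of replicate 1. The share of well-paired sites over stages passed with a score limit of 3 (range of 7.04 percentage points, permutation p = 0.00862) and with sites of at least 1 RPM only (16.3, permutation p = 0.0216). Between xrn4-5 roots and shoots, the difference in number was −0.333 with sites of at least 1 RPM only, and that in summed RPM was −4.50 as a percent of the summed RPM of all listed sites. Leaving out replicates gave 5 to 9 passing sites for dcl1-5, 9 to 16 over stages and 5 to 13 between tissues, and between tissues the filter of at least 4 libraries gave 2. The cause was not tested, except that fewer libraries and the stricter filter leave fewer sites to test. Of the passing sites, 8 of 9 for dcl1-5, 7 of 18 over stages and 8 of 15 between tissues passed in every alternative in which they were tested. Passing sites listed in 1 of 2 groups only were tested in 10 of 14 alternatives. They dropped out when a library of their group was left out or 4 libraries were required, so they could not lose their call there. Among the 8 between tissues, only HAM3 was listed in both tissues, and for dcl1-5 the limit holds for TAS2, HAM1 and ARF17.

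Replicate numbers were not found to pair the libraries: same-numbered correlations of deviations were −0.0652 to 0.165 for dcl1-5 and wild type, −0.157 to 0.234 over stages and −0.0384 to 0.0399 between tissues. With the replicate block, 11, 19 and 14 well-paired sites passed in these 3 comparisons. Blocked permutation p-values were 0.25 for the dcl1-5 number, the smallest possible, 0.00374 for the number over stages and 0.25 between tissues.

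Depth is unknown, so a site that was not listed cannot be given an upper limit. A fitted change against a group in which a site was not listed depends on the pseudocount.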
